A study of Schizosaccharomyces pombe with 6 samples.

Results

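The nuclear tRNA genes of fission yeast, Schizosaccharomyces pombe, were examined for Rad52 in chromatin immunoprecipitates. Rad52 is a protein of homologous recombination, which repairs broken DNA and restarts stalled replication forks. The genes were those with tRNA identifiers in the nuclear annotation, on chromosome I only within the first 75 segments of 50 kb, where array and reference positions coincide. Of 171 annotated nuclear tRNA genes, 16 lay beyond that limit and 155 remained. Values were available for 118 of them, by 2 to 5 probes (median 4) whose centres lay in the gene or within 500 bp of it. The other 37 genes had 0 usable probes: 33 of them stood in clusters, 4 were single, and 20 of the 37 were centromeric. In all, 10420 annotated genes of every kind were measured the same way.

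All samples were cdc25-22 cells, whose temperature-sensitive Cdc25 phosphatase holds them before mitosis when warm; 3 arrays were of cdc25-22 and 3 of ∆rad3 cdc25-22, called rad3-deleted here, which lacks the checkpoint kinase Rad3 (ATR in mammals). Both strains were arrested for 4 h at 36.5 °C, returned to 25 °C and given 6 mM hydroxyurea, which starves DNA replication of nucleotides. Each of the 6 arrays had 2 colours, with immunoprecipitate (IP) in green and input DNA in red; the sample labels speak of RNA extraction, but the fractions named are IP and input. No array was a control IP and none had the dyes exchanged, so enrichment specific to Rad52 was not tested and a dye effect at a probe does not cancel. The labels do not say that replicates were separate cultures, so p-values measure only the spread between arrays.

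The strain listed for 4 scanner files is in doubt. These 4, listed as replicates 1 and 2 of both strains, equal the value-table columns of the other strain on all 42641 probes, and they were used here as the value table places them. The targeted gene was read in each file, which does not depend on the placement. Of 33 rad3 probes, 9 and 10 were not well above background in either channel in the files listed as cdc25-22 1 and 2. In that of rad3-deleted replicate 3 the count was 9. Each of these was used as rad3-deleted, and the files used as cdc25-22 had 0 each. The file of cdc25-22 replicate 3 equals no column and stayed as listed. With every file under the sample that lists it, limma called 0 tRNA genes in any comparison (54, 59 and 2 had an unadjusted p below 0.05 in cdc25-22, in rad3-deleted and for the difference), so the counts below depend on that placement. From the authors' value table, which needs no placement of files, it called 25 tRNA genes higher in cdc25-22. There 53 were higher and 4 lower in rad3-deleted, and for the difference 3 were higher and 4 lower. The table's column of cdc25-22 replicate 3 equals no file and correlated at 0.40 with the file listed for it. Its correlation was 0.35, 0.36 and 0.51 with the files used as rad3-deleted 1, 2 and 3. With those used as cdc25-22 1 and 2 it was 0.22 and 0.14, so that column is itself uncertain. Median IP signals of the 6 arrays were 580 to 1211 over backgrounds of 38 to 49, and the lowest share of probes well above background was 84.9%, in the input of rad3-deleted replicate 2. Outlier-flagged probes numbered 2137 on cdc25-22 replicate 3 and 6 to 523 on the other arrays.

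A tRNA gene is transcribed by RNA polymerase III from a promoter inside the gene: the factor TFIIIC binds its A box and B box, brings in TFIIIB and, through it, the polymerase. These bound complexes are known to hinder passing replication forks, best described in budding yeast, and in fission yeast tRNA genes also border centromeric heterochromatin. The checkpoint kinase Rad3 acts when forks stall.

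The sequences below are shown because identical copies gave different values and because the highest genes differed in their B box. They are whole gene spans, introns included, from RefSeq (ASM294v3), read 5′ to 3′ on the gene's strand. Capitals mark a match to the B box letters, GGTTCGA followed by any 2 bases and CC, the same search being run on both strands of the genome. Of the 155 genes, 86 (55.5%) held a match, against 0.063% of all 74 bp windows of the 3 chromosomes; a gene without these letters may still carry a variant B box.
SPCTRNAGLU.10: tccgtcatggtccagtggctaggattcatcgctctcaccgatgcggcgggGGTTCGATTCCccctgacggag
SPCTRNAASN.06: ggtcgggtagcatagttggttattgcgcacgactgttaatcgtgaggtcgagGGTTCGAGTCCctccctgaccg
SPATRNAMET.02: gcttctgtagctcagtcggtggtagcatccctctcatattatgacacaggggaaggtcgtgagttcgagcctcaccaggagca
SPATRNACYS.03: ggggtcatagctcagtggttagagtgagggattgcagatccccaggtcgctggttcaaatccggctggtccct
SPATRNAALA.01: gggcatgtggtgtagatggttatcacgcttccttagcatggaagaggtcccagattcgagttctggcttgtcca
SPBTRNATHR.07: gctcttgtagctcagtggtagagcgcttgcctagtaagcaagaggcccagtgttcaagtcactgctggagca
SPCTRNAGLY.11: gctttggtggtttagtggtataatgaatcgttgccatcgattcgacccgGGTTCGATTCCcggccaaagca
SPBTRNAHIS.02: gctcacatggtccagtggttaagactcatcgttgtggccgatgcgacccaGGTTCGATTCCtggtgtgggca

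In cdc25-22 cells, IP over input lay above the array median at most tRNA genes, by a small amount. Each value is the log2 ratio of IP over input after the array's median over nuclear probes was set to 0. The median over the 118 genes was 0.33, 0.27 and 0.46 on arrays 1, 2 and 3. Gene means ran from -0.09 to 0.83 with quartiles of 0.24 and 0.51, and 115 of 118 were above 0. On all 3 arrays 94 genes were above 0, where 21.8% of all genes were. At an adjusted p of 0.05 over all genes, limma called 47 tRNA genes higher than the array median and 0 lower (0 also at an unadjusted p of 0.05); of all genes, 3.33% were called higher and 0.413% lower. The count of 47 leaned on single arrays: it was 13, 26 and 7 without cdc25-22 replicates 1, 2 and 3 and 29 without rad3-deleted replicate 2, and 5 genes were called whichever array was left out (SPATRNACYS.03, SPBTRNAASN.04, SPCTRNAARG.08, SPCTRNAGLU.10 and SPCTRNASER.11).

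The same reading of other gene classes gave a median of 0.41 over the 31 measured 5S rRNA genes, which polymerase III also transcribes, 0.25 over 63 snRNA and snoRNA genes, 0.00 over 4303 protein-coding genes and -0.01 over all genes. So the tRNA median lay between those of the 5S genes and of the snRNA and snoRNA genes. On array 1 the order differed, with 0.33 for tRNA, 0.34 for 5S and 0.36 for snRNA and snoRNA genes. On each of the 3 cdc25-22 arrays the tRNA median was far above that of protein-coding genes, which stood at 0.02, -0.01 and -0.02.

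**Figure D1:**
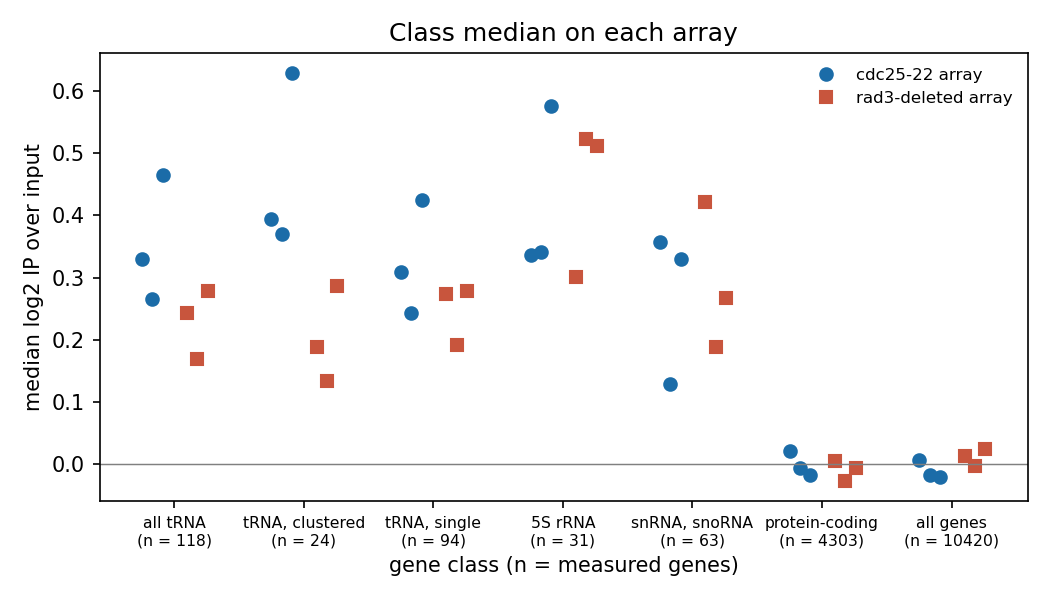
Median log2 IP over input of each gene class on each of the 6 arrays (circles, cdc25-22; squares, rad3-deleted), with the number of measured genes below each class. Clustered tRNA genes stood at 0.37 to 0.63 on cdc25-22 arrays and 0.13 to 0.29 on rad3-deleted arrays, while the 5S medians of both strains overlapped.

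The signal was narrow. Around the 70 tRNA genes with no other tRNA, 5S, snRNA or snoRNA gene within 5 kb, probes in the 200 bp upstream of the gene averaged 0.62 ± 0.21 (SD, n = 3 arrays) in cdc25-22 and probes in the 200 bp downstream 0.44 ± 0.09. From 200 to 400 bp the means were 0.18 ± 0.06 upstream and 0.08 ± 0.04 downstream. Farther out, to 3 kb, every 200 bp step in cdc25-22 lay between -0.05 and 0.08. Each step held probes of 39 to 60 of the 70 genes (47 in the nearest upstream step), so the steps differ in their genes. The nearest steps on both sides were the richest in A+T, at 66.7% upstream and 65.8% downstream, against 62.5% to 65.2% beyond 200 bp. Over the 118 genes, which share arrays and some probes, the windows' A+T share had a Spearman rho of 0.01 with the cdc25-22 value. With each array's trend on probe A+T share removed, limma called 48 of the 118 higher in cdc25-22. These included all 47 called without that step, and the median over genes was 0.32. The profiles were not redrawn that way, and whether composition shapes them was not tested.

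In rad3-deleted cells the mean of probes was lower in the nearest steps and higher in most steps farther out. The nearest steps averaged 0.43 ± 0.11 upstream and 0.29 ± 0.08 downstream, and the steps from 400 bp to 3 kb lay between 0.02 and 0.24. Within slides 1, 2 and 3, each of which held 1 array of each strain, rad3-deleted minus cdc25-22 was -0.17, -0.09 and -0.30 in the nearest upstream step and -0.07, -0.13 and -0.26 downstream. The profiles were not tested. At 800 to 1000 bp upstream, for example, the mean was 0.21 ± 0.11 against -0.02 ± 0.04 in cdc25-22. No median over genes was taken for these steps. Flanks, the mean of probes 1.5 to 5 kb away on both sides, were measured at 115 tRNA genes, clustered ones included. The median flank was at 0.01 in both strains, but it covers other genes and leaves out the steps nearer than 1.5 kb. A few genes had flanks far above that in rad3-deleted, at 1.43 for SPBTRNAGLU.08, 1.06 for SPCTRNASER.13 and 0.82 for SPBTRNAHIS.02.

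**Figure D2:**
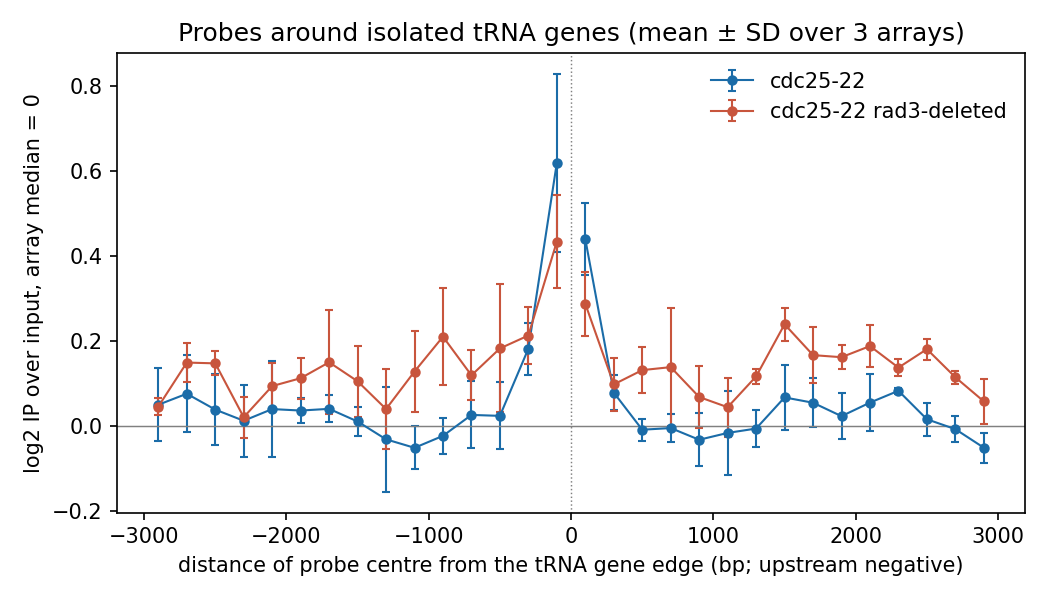
Mean log2 IP over input of probes by distance from the edge of 70 isolated tRNA genes, in 200 bp steps, upstream negative. Each step holds probes of 39 to 60 of these genes. Points and bars are the mean ± SD over 3 arrays of each strain. In cdc25-22 the value is 0.62 next to the gene upstream and near 0 from 400 bp on; in rad3-deleted it is 0.43 in that step and the mean stays above 0 out to 3 kb, while the median flank of the tRNA genes is near 0.

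The highest cdc25-22 value belonged to SPCTRNAGLU.10, a glutamate tRNA gene in the centromere of chromosome III (III:1097499-1097570, minus strand, ASM294v3). Its 3 cdc25-22 arrays gave 0.60, 0.83 and 1.06. All 3 of its probes lay beside the gene rather than over it, and limma gave an adjusted p of 0.0033 against the array median.

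The second highest was an asparagine gene. SPCTRNAASN.06 (III:1701899-1701972, plus strand) stood at 0.61, 0.59 and 1.19 (adjusted p 0.0067), 151 bp from the 5S gene SPRRNA.06. SPBTRNAASN.02 (II:2032160-2032233, plus strand), with the same 74 bases, stood a little lower at 0.63, 0.49 and 1.13 (adjusted p 0.0089) and lies 177 bp from the 5S gene SPRRNA.39. Such close pairs share probes, so a value there covers both genes. All 10 measured tRNA genes with a 5S gene within 1 kb were above 0 in cdc25-22, at 0.24 to 0.80 with a median of 0.49, and 7 were called higher; of the 108 without one, 40 were called and the median was 0.33.

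Between these asparagine genes came SPATRNAMET.02 (I:1484979-1485061, minus strand) at 0.85, 0.51 and 0.91 (limma adjusted p 0.015) and SPATRNACYS.03 (I:3700665-3700737, plus strand) at 0.51, 0.97 and 0.77 (adjusted p 0.0051). Neither holds the searched B box letters, and neither has a 5S gene within 30 kb, so high values were not limited to genes with those features. Over all measured genes the median was 0.35 for the 69 with a match and 0.32 for the 49 without.

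At the low end, SPBTRNATHR.07 (II:2790375-2790446, minus strand) gave 0.15, -0.42 and 0.01, SPATRNAALA.01 (I:934665-934738, minus strand) 0.02, 0.35 and -0.61, and SPBTRNAGLY.03 (II:180994-181064, minus strand) 0.15, -0.12 and -0.12. Their arrays fell on both sides of 0, and none was called. SPATRNALEU.02 and SPCTRNAILE.09 followed with means of 0.02 ± 0.07 and 0.03 ± 0.14 (SD, n = 3).

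By isotype, all 20 were measured, by 2 to 11 genes each, and every isotype median in cdc25-22 was above 0. The medians ran from 0.16 over 6 glutamine genes to 0.70 over 6 asparagine genes, followed by methionine at 0.55 over 6 genes. Some isotypes spread widely, as the 6 glutamate genes did from 0.15 to 0.83 and the 11 serine genes from 0.03 to 0.66. Others were closer together, with the 4 phenylalanine genes at 0.23 to 0.37 and the 4 aspartate genes at 0.37 to 0.64. Of the 6 asparagine genes, 3 have a 5S gene within 250 bp; they are the highest of the 6, at 0.74 to 0.80, and SPBTRNAASN.03, far from any, was at 0.32.

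**Figure D3:**
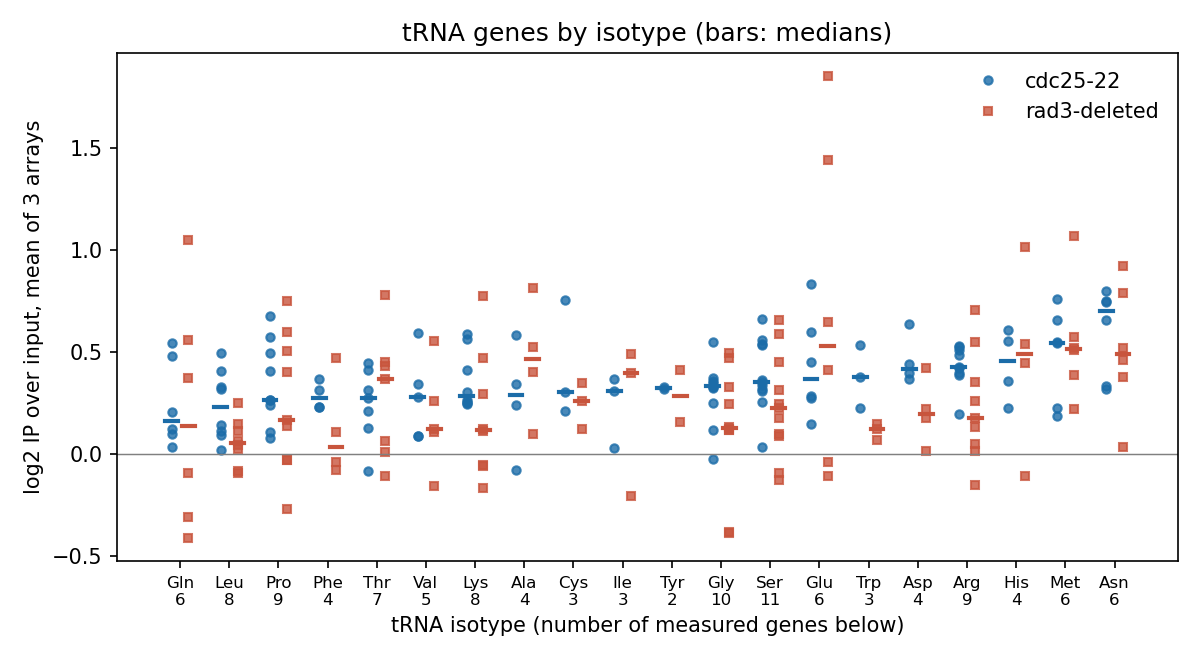
Mean log2 IP over input of each measured tRNA gene by isotype (circles, cdc25-22; squares, rad3-deleted; bars, medians), ordered by the cdc25-22 median, with the number of genes below. Medians in cdc25-22 run from 0.16 for Gln to 0.70 for Asn, and the rad3-deleted values spread farther in most isotypes, up to 1.85 for Glu.

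In rad3-deleted cells the tRNA genes stood lower at the median and spread farther. The median over the 118 genes was 0.24, 0.17 and 0.28 on arrays 1, 2 and 3. On the highest of these arrays it reached just above the lowest cdc25-22 array, so the 2 sets of 3 arrays overlapped slightly. Gene means ran from -0.41 to 1.85, 2.47 times the cdc25-22 range. Over all genes the spread was also wider, from -0.91 to 2.98 against -0.56 to 1.33 in cdc25-22, or 2.05 times. Of 118 genes, 94 were above 0 and 72 were above 0 on all 3 arrays (35.3% of all genes were).

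Limma called 51 tRNA genes higher than the array median and 5 lower in rad3-deleted, where 26.4% of all genes were called higher and 20.2% lower; 31 of the 51 were also called in cdc25-22. Without rad3-deleted replicate 2 the lower count was 3.

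The highest values in rad3-deleted were again at SPCTRNAGLU.10, with 1.90, 1.95 and 1.71. SPBTRNAGLU.08 (II:4107639-4107710, plus strand), whose 72 bases are the same, was next at 1.28, 1.45 and 1.60. Then came the methionine gene SPBTRNAMET.06 (II:2434303-2434374, minus strand) at 0.71, 1.13 and 1.37. SPCTRNAGLN.06 (III:2074991-2075062, minus strand) gave 1.04, 1.10 and 1.01, and the histidine gene SPBTRNAHIS.02 (II:960729-960800, plus strand) 0.72, 1.21 and 1.12. Each of the 5 was called higher, with adjusted p of 3.4e-04 or less by limma. The flanks of SPCTRNAGLU.10 were not measured. Those of the other genes were at 1.43, 0.17, 0.62 and 0.82 in rad3-deleted, in the order named.

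The lowest were the glutamine gene SPBTRNAGLN.01 (II:257454-257525, plus strand) at -0.42, -0.28 and -0.54, SPBTRNAGLY.03 at -0.16, -0.52 and -0.49, and SPCTRNAGLY.11 (III:820567-820637, minus strand) at -0.30, -0.20 and -0.65. SPCTRNAGLN.05 (III:1863131-1863202, plus strand), at -0.50, -0.20 and -0.24, and the proline gene SPBTRNAPRO.04 (II:1825787-1825858, minus strand), at -0.08, -0.34 and -0.40, complete the 5 called lower. All arrays of these 5 genes were below 0. Their flanks in rad3-deleted were at -0.13, -0.39, -0.14, 0.08 and -0.61, in the order named.

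The difference between the strains ran mostly downward across the tRNA genes. The median of rad3-deleted minus cdc25-22 was -0.14, against -0.03 for 5S genes, -0.06 for snRNA and snoRNA genes, -0.03 for protein-coding genes and -0.01 for all genes. On slides 1, 2 and 3 it was -0.13, -0.08 and -0.22. Quartiles of the gene differences were -0.30 and 0.05, and 35 of 118 genes were above 0. In 22 genes the mean was above 0 in cdc25-22 and below 0 in rad3-deleted.

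By limma, 7 tRNA genes rose in rad3-deleted and 17 fell, where 16.7% of all genes rose and 6.35% fell. The strains' arrays did not overlap at 8 genes with rad3-deleted higher (24.1% of all genes) and 30 with it lower (19.5% of all genes). After quantile scaling 5 rose and 39 fell, and after scaling to equal spread 6 and 26. Without cdc25-22 replicate 3 the median difference was -0.07. Few of the falls held up to leaving out an array: the count was 6, 7 and 5 without cdc25-22 replicates 1, 2 and 3 and 3 and 9 without rad3-deleted replicates 2 and 3. Of the 17 genes only SPCTRNAGLY.11 was called whichever array was left out, while 6 of the 7 rises were, all but SPATRNATHR.01.

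**Figure D4:**
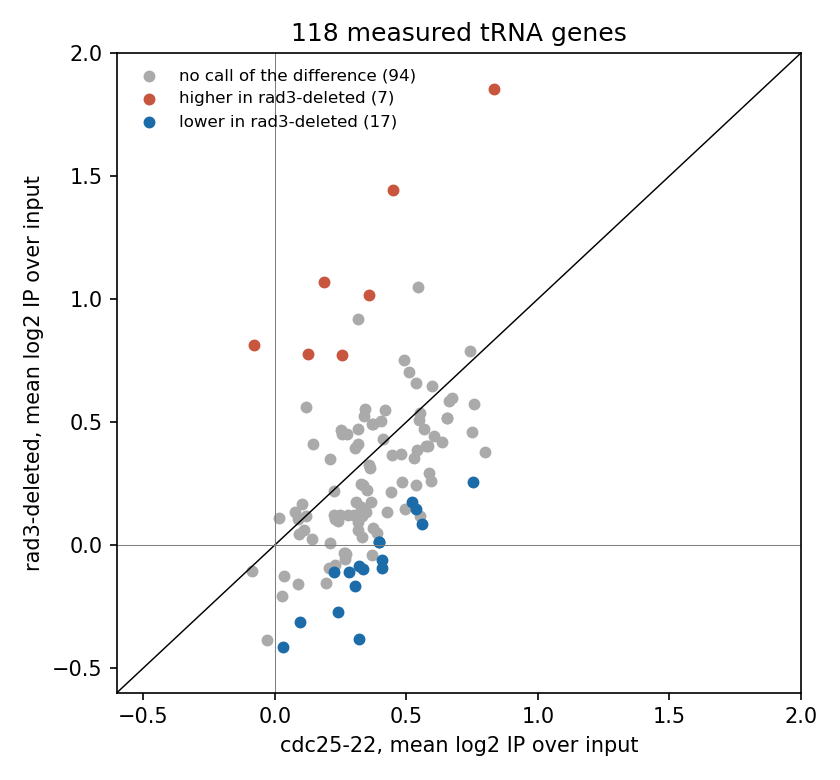
Each of the 118 measured tRNA genes by its mean log2 IP over input in cdc25-22 (horizontal) and rad3-deleted (vertical), coloured by the limma call of the difference; the line marks equal values. Most genes lie below the line, 7 called genes lie well above it, and the vertical spread, -0.41 to 1.85, is wider than the horizontal.

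The 7 genes that rose were all single and all called higher in rad3-deleted, and 2 were called in cdc25-22 as well. SPCTRNAGLU.10 rose by 1.02 ± 0.13 (standard error; limma adjusted p 5.2e-04), a fold of 2.03. SPBTRNAGLU.08, at 0.53, 0.27 and 0.54 in cdc25-22, rose by 0.99 ± 0.12 (adjusted p 3.8e-04). SPATRNAALA.01, whose cdc25-22 arrays straddled 0, gave 0.73, 0.63 and 1.08 in rad3-deleted and rose by 0.89 ± 0.21 (adjusted p 0.013).

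SPBTRNAMET.06, at 0.28, 0.00 and 0.28 in cdc25-22, rose by 0.88 ± 0.16, and SPBTRNAHIS.02, at 0.32, 0.32 and 0.43, by 0.66 ± 0.13; limma's adjusted p was 0.0034 and 0.0058. The other 2 genes were SPATRNATHR.01 (0.65) and SPATRNALYS.04 (0.52). At each of the 7, the lowest rad3-deleted array stood above the highest cdc25-22 array, though the same arrays chose these genes.

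The surroundings of these genes were higher as well. Flanks were measured for 6 of the 7, and their difference was above 0 at all 6, from 0.22 to 1.496. For the tRNA genes as a whole the median flank difference was 0.00. Around SPBTRNAGLU.08, which lies 1651 bp from mug147, the flanks were at -0.20, 0.14 and -0.15 in cdc25-22 and 1.35, 1.43 and 1.496 in rad3-deleted. In cdc25-22 the gene thus stood above its flanks by 0.52, and in rad3-deleted by 0.02.

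SPBTRNAHIS.02 was alike, with flanks of 0.02 ± 0.09 in cdc25-22 and 0.82 ± 0.20 in rad3-deleted (SD, n = 3). SPATRNAALA.01 and SPBTRNAMET.06 differed from it in that their flanks were higher by less than the genes, by 0.22 and 0.30. With the flank mean subtracted on every array, a measure added after the data were seen, SPBTRNAMET.06 alone of these genes was still called by limma, with a difference of 0.58 and an adjusted p of 0.027. SPATRNAALA.01 had a difference of 0.67 on that measure, but its adjusted p was 0.052; SPCTRNAGLU.10 had too few flanking probes to be measured so.

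The 17 genes that fell form 16 loci, since SPBTRNAARG.06 and SPBTRNAASP.05 share their probes. Of the 17, 8 were called higher in cdc25-22 and 0 in rad3-deleted, and 11 had a rad3-deleted mean below 0. SPCTRNAGLY.11 changed most: it went from 0.29, 0.17 and 0.51 to -0.30, -0.20 and -0.65, a fall of -0.70 ± 0.14 (standard error; limma adjusted p 0.0053), or 0.614 of the cdc25-22 ratio. Its flanks changed by -0.05.

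SPBTRNAPRO.04 went from 0.29, 0.34 and 0.09 to values all below 0 (-0.51, limma adjusted p 0.014), but its flanks were lower by more, with a difference of -0.64, so that the difference turned to 0.13 with the flanks subtracted. The leucine gene SPBTRNALEU.09 (II:3209139-3209217, minus strand) went from 0.33, 0.60 and 0.29 to -0.18, -0.17 and 0.08 (-0.50, adjusted p 0.017), with flanks changed by -0.02.

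SPATRNACYS.03, among the highest in cdc25-22, came down to 0.01, 0.43 and 0.33 (-0.50, limma adjusted p 0.035). The lysine gene SPBTRNALYS.06 (II:602625-602699, minus strand) went from 0.44, 0.01 and 0.47 to 0.06, -0.27 and -0.29, a change of -0.47 (adjusted p 0.043), and is the only one of these 5 whose arrays overlap between strains. Over the 15 fallen genes with measured flanks, flank differences ran from -0.64 to 0.08 and 12 were below 0; 5 genes were still called with the flanks subtracted.

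**Figure D5:**
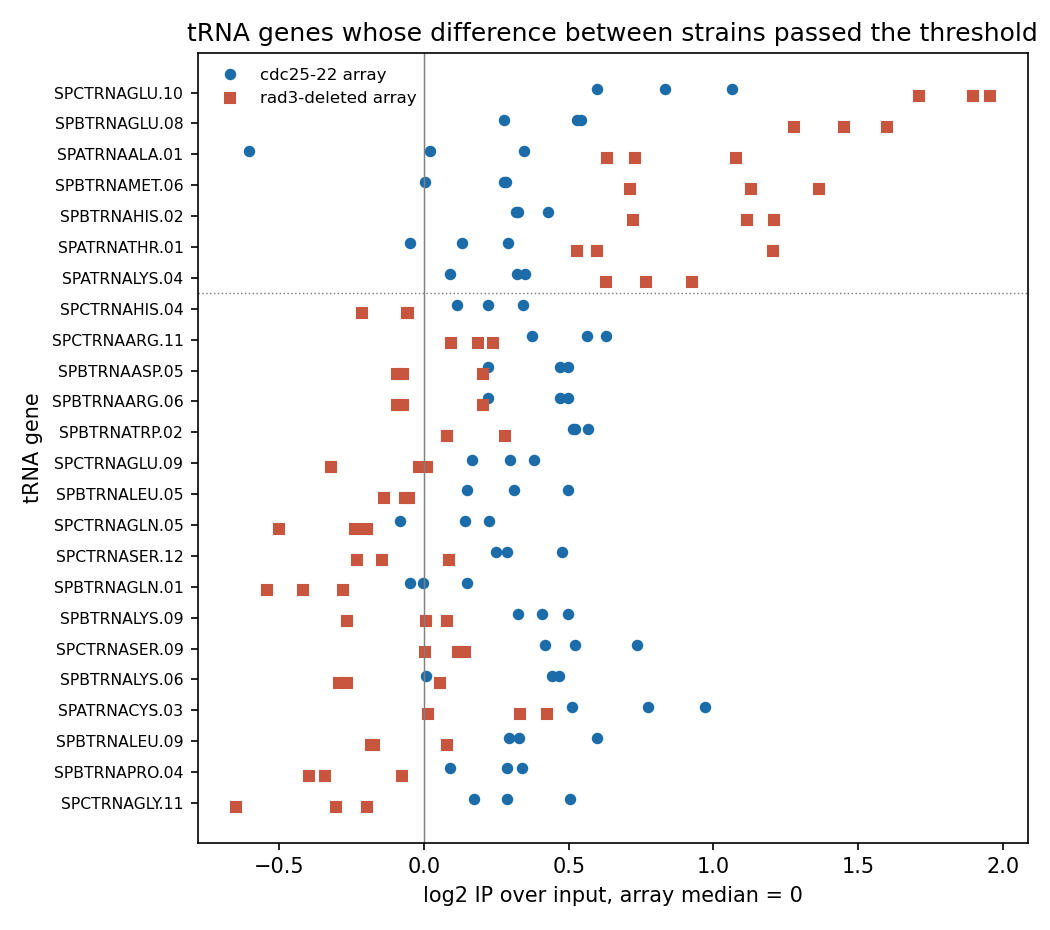
Log2 IP over input on each array (circles, cdc25-22; squares, rad3-deleted) for the tRNA genes whose difference passed the limma threshold, 7 higher above the dotted line and 17 lower below it. All 7 upper genes, chosen on these same arrays, separate the strains, and SPCTRNAGLU.10 lies farthest right at 1.71 to 1.95.

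With flanks subtracted at all 115 tRNA genes that had them, 45 were called higher and 0 lower in cdc25-22 (3.7% and 2.31% of all genes), 38 higher and 4 lower in rad3-deleted (16.3% and 13.8%), and for the difference 1 rose (8.92%) and 11 fell (5.26%). Median values were 0.32, 0.20 and -0.13. These medians differ little from the unsubtracted values of 0.34, 0.22 and -0.14, but the genes called were not all the same. Of the 47 called higher in cdc25-22 without subtraction, 38 were called again. In rad3-deleted it was 26 of the 51 higher and 2 of the 5 lower. For the difference it was 1 of the 7 rises and 5 of the 17 falls.

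Clustered tRNA genes, those with another within 1 kb, are set beside single ones here. The 24 measured genes of clusters make up only 15 loci with probes of their own, in 9 clusters. Their median was 0.46 in cdc25-22 and 0.20 in rad3-deleted, and the difference was below 0 at all 24, from -0.50 to -0.03 with a median of -0.22; 7 fell and 0 rose (0 also at an unadjusted p of 0.05). The 94 single genes had medians of 0.32, 0.22 and -0.12, and 10 fell and 7 rose. Over all genes, 6.35% fell and 16.7% rose. With the flanks subtracted the median differences were -0.07 for clustered and -0.14 for single genes, in the other order. With clusters taken at 2 kb, SPCTRNAGLU.10 joined them, so that 1 of 25 was above 0 and rose. Whether clustered and single genes differ was not tested.

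The 12-gene cluster beside the centromere of chromosome II (II:1597996-1602417) was measured at 4 genes on its outer edges. SPBTRNAASN.01 and SPBTRNAMET.05 share their probes and gave 0.37, 0.88 and 0.72 in cdc25-22 and 0.27, 0.48 and 0.80 in rad3-deleted, which overlap. At the other edge SPBTRNAARG.06 and SPBTRNAASP.05 gave 0.22, 0.47 and 0.50 against -0.09, -0.07 and 0.20, which fell by limma (-0.38, adjusted p 0.048). In the 7-gene cluster on chromosome III (III:1065044-1069244), 5 genes were measured; SPCTRNASER.09 went from 0.52, 0.42 and 0.73 to 0.14, 0.00 and 0.12, while SPCTRNALEU.11 was near 0 in both strains, with means of 0.09 and 0.04.

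Centromeric tRNA genes were those inside published centromere spans of chromosomes II and III, since the reference annotates no spans. Of the 22 centromeric tRNA genes only SPCTRNAGLU.10 and SPBTRNAASP.05 were measured, and they changed in opposite directions, by 1.02 and -0.38. No statement on centromeric tRNA genes as a class can be made from 2 genes. On the arms, 116 genes had medians of 0.33 and 0.22, and 6 rose and 16 fell (16.7% and 6.35% of all genes). Those 16 include SPBTRNAARG.06, which shares its probes with SPBTRNAASP.05, so the same fall is counted in both classes.

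Among chromosomes, the 40 measured genes of chromosome I had a median difference of -0.05 (3 rose, 1 fell), the 45 of chromosome II -0.17 (3 rose, 9 fell) and the 33 of chromosome III -0.22 (1 rose, 7 fell). With the flanks subtracted these medians were -0.11, -0.16 and -0.11. Of all genes, 16.7% rose and 6.35% fell. Neither these shares nor the median over all genes was taken by chromosome, so a general difference between chromosomes was not set apart. AT-rich islands, a feature of most fission yeast replication origins, lay within 2 kb of 41 measured genes, whose median difference was -0.14 as it was for the other 77. Of the genes that rose or fell, 3 of 7 and 8 of 17 had an island that close.

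Copies with the same sequence often differed, though not always: SPATRNALYS.02 and SPATRNALYS.03 stood at 0.57 and 0.59 in cdc25-22. The measured genes held 25 groups of identical copies, 80 genes in all. Within a group the values ranged over a median of 0.36 in cdc25-22 and 0.55 in rad3-deleted. Quartiles of all 118 genes were 0.24 and 0.51 in cdc25-22 and 0.05 and 0.47 in rad3-deleted. Whether copies differ more or less than other tRNA genes do was not tested. In cdc25-22 the widest group was the alanine pair of SPATRNAALA.01 and SPBTRNAALA.07, at 0.66, and in rad3-deleted that of SPCTRNAGLU.10, at 1.96. Of the 4 copies of SPCTRNAGLU.10, SPCTRNAGLU.10 and SPBTRNAGLU.08 rose by 1.02 and 0.99, while SPCTRNAGLU.09 (III:140967-141038, plus strand) went from 0.30, 0.16 and 0.38 to -0.02, -0.32 and 0.01 and fell by 0.39 on the log2 scale (limma adjusted p 0.043). Likewise SPBTRNAHIS.02 rose by 0.66, and its copy SPCTRNAHIS.04 fell by 0.33 (limma adjusted p 0.049, or 0.051 with the replicate number as a block). In 3 of the 25 groups 1 copy rose and another fell.

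The glycine sequence printed for SPCTRNAGLY.11 has 6 measured copies, which spread from -0.03 to 0.33 in cdc25-22 and from -0.39 to 0.47 in rad3-deleted. For such copies a probe over the gene can bind DNA from all of them. Of the 118 genes, 58 had probes only in the flanks, whose sequences were not compared between copies. Those 58 had medians of 0.32 and 0.15, and the 60 with a probe over the gene 0.35 and 0.26.

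Input DNA gave no call between strains, at tRNA genes or elsewhere, which does not show that it was equal. The input difference, from the red channel alone, ran from -0.38 to 0.58 with a median of -0.03. Limma called 0 tRNA genes (3 had an unadjusted p below 0.05) and 0 of all genes (304 had). The 5 highest were SPATRNATHR.01 (0.58), SPBTRNAGLU.08 (0.54), SPATRNALYS.04 (0.41), SPBTRNAGLN.01 (0.40) and SPCTRNASER.10 (0.33), and the first 3 of these are also among the 7 genes whose IP over input rose. At the other end were SPBTRNAGLN.04 (-0.38), SPBTRNAMET.04 (-0.34), SPATRNASER.01 (-0.32), SPCTRNAGLN.06 (-0.29) and SPATRNALEU.03 (-0.26).

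The protein genes of the polymerase III machinery stood near the array median in cdc25-22. Of 21 listed symbols all matched the annotation and 19 were measured. In cdc25-22 they lay between -0.13 and 0.21 with a median of 0.03, and limma called 0 of them (3 had an unadjusted p below 0.05). For the difference, where 16.7% of all genes rose and 6.35% fell, 2 of the 19 rose: sfc6, which encodes a TFIIIC subunit, by 0.72 (adjusted p 0.0023), and brf1, of TFIIIB, by 0.48 (adjusted p 0.015). The 5 that fell were the TFIIIC genes sfc1 (-0.35) and sfc3 (-0.31), the polymerase genes rpc37 (-0.33) and rpc53 (-0.38), and maf1 (-0.36), which encodes a repressor of polymerase III. These values describe DNA at those loci and not the level of the proteins.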

How the data were processed

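Rad52 IP and input DNA of 3 arrays per strain were scanned and quantified with Agilent Feature Extraction 10.7.3.1, per the submitters' processing notes. Per the file headers, the deposited signals are spot intensity values, background-subtracted and dye-corrected. The log10 column deposited by the authors is red over green. In the authors' value table each entry is a linear ratio, IP over input. From the processed signals, log2 green over red was taken without outlier-flagged and control spots and centred on each array's median. Gene values are means of probes within 500 bp with at least 2 probes, and limma 3.58.1 (R 4.3.3) was fitted on all 10420 genes at a Benjamini-Hochberg threshold of 0.05. Summaries used Python 3.11.15 (pandas 2.3.3). Array positions matched ASM294v3 in all 214 segments of 50 kb outside the excluded arm of chromosome I. Windows of 6 measured genes held a probe not well above background on all arrays of a strain. The code was tested on simulated data.

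Slide and replicate number coincide, and same-numbered arrays deviated together (correlations of 0.31, 0.21 and 0.19), so the numbers pair the arrays. The protocol recorded for slides 1 and 2 was comparative genomic hybridization (CGH), and for slide 3 it was ChIP. Replicate 3 of both strains thus differed in protocol from replicates 1 and 2, and an effect of protocol was not tested. Named genes are the 5 highest and 5 lowest tRNA loci per comparison, and others were named after their values were seen. Members and lists were chosen with earlier results of these data known.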

Additional observations from a re-analysis of the deposited data

Results flagged for a closer look

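At 4 tRNA genes all 3 cdc25-22 arrays were above the array median and all 3 rad3-deleted arrays below it, and the difference passed the limma threshold. The differences were -0.70 at SPCTRNAGLY.11, -0.51 at SPBTRNAPRO.04, -0.40 at SPBTRNALEU.05 and -0.33 at SPCTRNAHIS.04. Of all genes, 6.35% fell by limma, and the share that meets this stricter rule was not counted. Among the 4, only SPCTRNAGLY.11 was called whichever array was left out. At SPBTRNAPRO.04 the flanks differed by -0.64, more than the gene did. SPBTRNALEU.05 (II:1402444-1402541, minus strand) gave 0.15, 0.50 and 0.31 in cdc25-22 and -0.14, -0.06 and -0.05 in rad3-deleted (adjusted p 0.030). SPCTRNAHIS.04 (III:1844639-1844710, plus strand) gave 0.11, 0.22 and 0.34 against -0.06, -0.06 and -0.21, and its adjusted p of 0.049 was 0.051 with the replicate number as a block.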

How the results depend on the processing

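Over all settings tried, median levels ran from 0.22 to 0.51 in cdc25-22 and 0.15 to 0.32 in rad3-deleted, and the median difference from -0.33 to -0.07 apart from the listing of files below, while counts moved widely. The cdc25-22 count of 47 higher was 0 with files as listed, 25 from the value table, 12 after normexp, 88 after quantile scaling, 82 after scaling to equal spread, 29 from flanking probes only, 24 in 1 kb bins, and 29 with a size of at least 0.5; leaving out an array gave 7 to 58. In rad3-deleted, 51 higher became 0 as listed and 26 with that size (44 to 54 without an array). Its 5 lower became 0 as listed, 1 with 250 bp and 10 with 1000 bp windows, 8 from flanking probes, 8 with single probes allowed and 0 with that size (3 to 5 without an array). For the difference, 7 higher became 0 as listed, 3 from the value table, 4 and 14 with 250 and 1000 bp windows and 1 with local flanks subtracted (6 to 8 without an array). The 17 lower became 0, 4, 39 (quantile), 26 (equal spread), 11 without dim probes, 5 in bins, 11 with flanks subtracted and 2 with that size (3 to 21 without an array). The cause was not tested. With replicate number as a block, the counts were 64 and 0, 56 and 6, and 9 and 19; 16 of the 17 lower calls were among the 19, SPCTRNAHIS.04 having an adjusted p of 0.051, and no other call of a tRNA gene was lost. Median input differences turned to 0.021 as listed, 0.0031 without dim probes, 0.0019 with flanks subtracted and 0.011 without rad3-deleted replicate 2 (from -0.055 over the arrays left out), and the IP median difference was 7.7e-04 as listed. As listed, differences turned to -0.59 at SPCTRNAGLU.10, -0.29 at SPBTRNAGLU.08, -0.16 at SPBTRNAMET.06, -0.20 at SPBTRNAHIS.02, 0.19 at SPBTRNAPRO.04, 0.36 at SPBTRNALEU.09 and 0.20 at SPATRNACYS.03, and SPBTRNAPRO.04 in rad3-deleted to 0.077. With flanks subtracted, it was 0.34, and the differences were -0.50 at SPBTRNAGLU.08, -0.14 at SPBTRNAHIS.02 and 0.13 at SPBTRNAPRO.04. Flank subtraction and counting by locus were chosen after seeing the data. Arrays numbered 3 per strain, which limits precision.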
